A study of Mus musculus with 4 samples.

Results

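Bile acid synthesis enzymes were examined in the liver of male ob/ob mice, an obese strain without functional leptin. The 10 genes were chosen by symbol for their place in the pathway, from 24346 genes in the tables, and were Cyp7a1, Cyp8b1, Cyp7b1, Hsd3b7, Akr1d1, Amacr, Baat, Slc27a5, Acox2 and Scp2. All 4 groups were ob/ob mice fed for 4 weeks from 6 weeks of age, and every diet held 1% cholesterol. CD was a regular chow diet with 5% corn oil, and WD was a western type diet with 20% cocoa butter. WD also held more sucrose and less casein than CD, so a diet difference below is not one of fat alone. CD+7KC and WD+7KC were the same diets with 0.01% 7-ketocholesterol (7KC), a form of cholesterol oxidized at carbon 7. Each group had 1 library, and whether a library held RNA of 1 mouse or of several is not given in the sources used here. Differences between libraries therefore could not be set against the spread between mice, and no test was made. Lean mice were not among the groups, so that every value belongs to a leptin-deficient, cholesterol-fed liver.

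Hepatocytes turn cholesterol into bile acids, which are secreted into bile and help the gut to absorb fat. The classic pathway starts with 7α-hydroxylation by Cyp7a1, and the alternative pathway starts with oxidation of the side chain, after which Cyp7b1 adds the 7α-hydroxyl group. The sterol ring is then changed by Hsd3b7 and Akr1d1, and 12α-hydroxylation by Cyp8b1 sends the product to cholic acid, so that Cyp8b1 sets the share of 12α-hydroxylated bile acids. The side chain is shortened in peroxisomes by Amacr, Acox2 and Scp2, and the product is conjugated to taurine or glycine by Slc27a5 and Baat. Bile acids limit their own synthesis through the nuclear receptor FXR, its target SHP and gut FGF signals, all of which act on Cyp7a1 and Cyp8b1.

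Cyp8b1 and Akr1d1 were the members that passed the threshold used here in any comparison, so the 250 bases before their transcription starts are shown. The windows come from RefSeq (GRCm38.p6), and the table of windows used here held 5 of the 10 genes: Acox2, Akr1d1, Cyp8b1, Hsd3b7 and Scp2. Cyp8b1 lies on chromosome 9 (121914356 to 121916305, minus strand, GENCODE vM21 on GRCm38) and has 1 exon of 1950 bases. Its window is chr9:121916306-121916555 on the minus strand. Akr1d1 lies on chromosome 6 (37530173 to 37568815, plus strand) with 9 exons in a transcript of 2699 bases, and its window is chr6:37529923-37530172 on the plus strand. Both are written from 5′ to 3′. Capitals mark, in Cyp8b1, the HNF4A letters CAAAGTCCA, the NR5A (LRH-1) letters CAAGGNCA and a TATA box TATAAA, and in Akr1d1 the reverse complement TGACCT of the nuclear receptor half-site AGGTCA.
Cyp8b1: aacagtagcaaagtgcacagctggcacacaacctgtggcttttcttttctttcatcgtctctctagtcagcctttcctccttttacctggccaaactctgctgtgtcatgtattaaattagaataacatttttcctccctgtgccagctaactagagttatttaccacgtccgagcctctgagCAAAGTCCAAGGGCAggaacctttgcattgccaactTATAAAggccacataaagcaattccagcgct
Akr1d1: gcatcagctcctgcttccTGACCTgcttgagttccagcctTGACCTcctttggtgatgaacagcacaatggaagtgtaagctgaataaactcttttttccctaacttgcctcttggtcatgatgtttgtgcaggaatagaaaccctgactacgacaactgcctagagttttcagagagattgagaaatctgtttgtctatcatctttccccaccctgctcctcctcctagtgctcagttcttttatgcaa

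In the Cyp8b1 window the HNF4A match lay at positions -67 to -59 and the NR5A match at -60 to -53, counted back from the start site, so that they shared 2 bases, and the TATA box lay at -31 to -26. Both factors are hepatocyte transcription factors known to drive bile acid synthesis genes. On both strands of all 32851 windows of this length, 0.384% held the HNF4A letters, 5.53% the NR5A letters and 12.4% the TATA letters. Both the HNF4A and the NR5A letters were in 11 windows, and they overlapped in 1, that of Cyp8b1. In the Akr1d1 window the half-site stood at -232 to -227 and at -210 to -205, while 14.02% of all windows held it. The Scp2 window, before a start inside the gene as GENCODE draws it, held 1 half-site, at -109 to -104, and the windows of Hsd3b7 and Acox2 held none of the letters searched. The Acox2 windows also lay inside the gene as GENCODE draws it, and the end of the Hsd3b7 window overlapped the start of that gene. An FXR inverted repeat (AGGTCANTGACCT) and a D-box (TTANGTAA), which were in 0.00609% and 2.06% of all windows, were in none of the members' windows. The motifs were chosen with the Cyp8b1 window in view, and a match is a description of letters, not a measured binding site.

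The other members lie at chromosome 4 (Cyp7a1, 6265612 to 6275633; Baat, 49489422 to 49506557; Scp2, 108043839 to 108144998), chromosome 3 (Cyp7b1, 18071950 to 18243338), chromosome 7 (Slc27a5, 12988346 to 12998192; Hsd3b7, 127800604 to 127803802), chromosome 14 (Acox2, 8225511 to 8259353) and chromosome 15 (Amacr, 10981756 to 10996626). Exons of Hsd3b7 overlap those of Gm49388 on the same strand and of 9430064I24Rik on the opposite strand in GENCODE vM21, and the options with which reads were assigned are not given in the sources used here, so its values are less certain. The exons of the other 9 members overlap no other gene.

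Expression was given as FPKM, a fragment number scaled for transcript length and library size, which can be compared between genes. The steps between low FPKM values corresponded to an effective size of between 9440000 and 12120000 fragments per library. This size turns FPKM into reads and need not equal the number of mapped fragments. From these steps the reads behind each member were estimated, and the exact 95% intervals given below cover counting error only, not the variation between mice. Differences are log2 ratios of FPKM + 0.1, and a gene was counted when its log2 ratio was above 1 or below -1. The summed FPKM was 715605 (CD), 696062 (CD+7KC), 699534 (WD) and 602059 (WD+7KC). After rescaling to equal sums, the median log2 ratio of all genes in WD+7KC relative to WD moved from 0.0021 to 0.21, so a small difference that involves WD+7KC depends on the scaling. Median-ratio scaling of the deposited values had divisors between 0.999 and 1.001. A median of all genes near 0 below therefore follows from how these values were scaled.

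The tissue label was checked with 12 hepatocyte markers, none of which was at 0 in any library, and of which Alb ranged from 30014 FPKM in WD+7KC to 35981 FPKM in WD. The summed level of 14 macrophage and Kupffer cell markers was 159.9 FPKM (CD), 252 (CD+7KC), 275 (WD) and 550.4 FPKM (WD+7KC). The summed level of 6 endothelial markers was lowest in WD, at 43.5 FPKM, and highest in WD+7KC, at 123 FPKM, with CD+7KC at 80.2 FPKM and CD between WD and CD+7KC. Macrophage markers were thus highest in WD+7KC, the library in which all 10 members were at their lowest with the deposited values. The summed hepatocyte markers were at 80854 FPKM there, against 92342 to 101805 FPKM in the other libraries, but their median level was lowest in CD+7KC (3094 FPKM, against 3536 to 4203 FPKM), and as a share of the summed FPKM they were at 13.4% in WD+7KC and 13.3% in CD+7KC. The part of the macrophage and endothelial markers in the differences below was not tested, and values after scaling to the hepatocyte markers are given beside the members. The hepatocyte markers themselves differed with 7KC. Their log2 ratios ran from -0.60 (Apoa1) to -0.027 (Trf) under WD and from -0.71 (Apoa1) to 0.17 (Tat) under CD. Values with this scaling therefore depend on the markers used. In bulk liver, fewer hepatocytes and less RNA per hepatocyte cannot be told apart.

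The levels of the 10 genes ran from 2.47 FPKM (Cyp7b1 in WD+7KC) to 2457 FPKM (Scp2 in CD). Scp2, a sterol carrier and peroxisomal thiolase, was the highest of them in every library, with 2457 FPKM (CD), 2343 (CD+7KC), 2095 (WD) and 1713 FPKM (WD+7KC). Slc27a5 and Hsd3b7 followed in that order in every library, and the 7α-hydroxylases were at the bottom, Cyp7a1 at rank 9 and Cyp7b1 at rank 10 throughout. The middle of the order differed between libraries. Cyp8b1 was at rank 4 in CD, rank 8 in CD+7KC, rank 6 in WD and rank 7 in WD+7KC. Akr1d1 stood above Amacr in CD and CD+7KC and below it in WD and WD+7KC, with a ratio of Akr1d1 to Amacr of 1.204 (CD), 1.63 (CD+7KC), 0.565 (WD) and 0.654 (WD+7KC). Among neighbours in the order that both had a 95% counting interval, the intervals overlapped for Amacr and Cyp8b1 in CD+7KC. Acox2, for which no interval was computed, lay close to Baat in CD+7KC, WD and WD+7KC and to Cyp8b1 in WD.

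**Figure D1:**
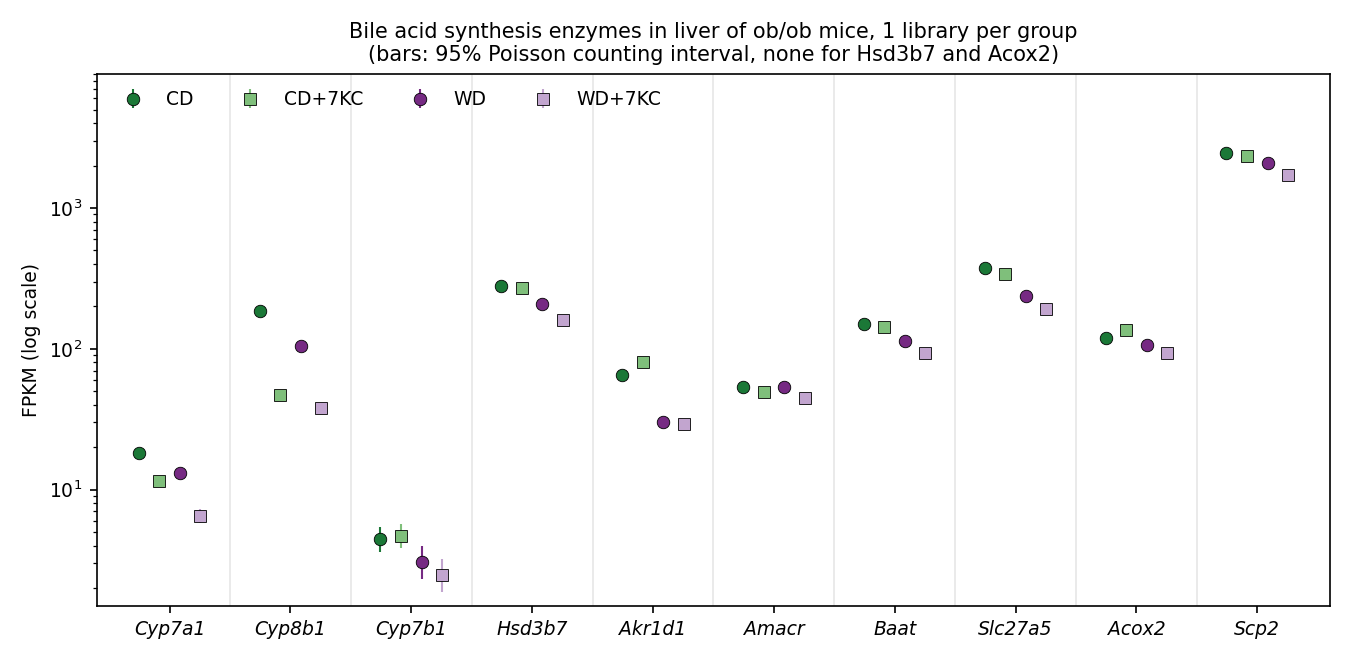
FPKM (log axis) of the 10 bile acid synthesis enzymes in the CD, CD+7KC, WD and WD+7KC libraries, with 1 point per library and bars for the 95% Poisson counting interval, most of them smaller than the points and none drawn for Hsd3b7 and Acox2. With these deposited values every member was lowest in WD+7KC (7 of 10 after rescaling to equal sums), and Cyp8b1 had the widest range, from 38.0 FPKM in WD+7KC to 186 FPKM in CD.

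Every member had its lowest level in WD+7KC with the deposited values, and 7 of 10 did after rescaling to equal sums. With the deposited values, 7 of the 10 had their highest in CD. The exceptions were Cyp7b1, Akr1d1 and Acox2, which were highest in CD+7KC. Between the highest and the lowest library the ratio was 4.89 for Cyp8b1, 2.78 for Cyp7a1 and 2.76 for Akr1d1. For the other members it lay between 1.21 (Amacr) and 1.97 (Slc27a5).

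The first question was which enzymes differed when 7KC was added to WD. Cyp8b1 fell past the threshold, Cyp7a1 lay just short of it, and the other 8 members were between 0.38 and 0.056 lower on the log2 scale. Of the 10 members, 1 was below -1 and 0 were above 1, where 2.79% of the 15753 genes tested were below -1 and 6.21% above 1. With 10 genes a single gene sets this count. The median log2 ratio of the members was -0.30, against 0.0021 for all genes tested and -0.12 for the 4657 of them whose mean reached 10 FPKM. With the deposited values all 10 members were lower in WD+7KC than in WD, but 8 were lower after rescaling to equal sums, 9 after rescaling without the 20 highest genes and 7 after scaling to the hepatocyte markers. Most well-expressed genes were lower in this comparison too. Of the 4657 genes whose mean reached 10 FPKM, 3351 were lower and 1306 higher, and all 12 hepatocyte markers were lower.

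Cyp7a1, which catalyses the rate-limiting step of the classic pathway, was at 18.1 FPKM (CD), 11.5 (CD+7KC), 13.1 (WD) and 6.53 FPKM (WD+7KC). It was lower with 7KC than without it under either diet. With 7KC under WD its log2 ratio was -0.99 (95% counting interval -1.21 to -0.80), from an estimated 314 and 490 reads. It was -0.78 after rescaling to equal sums (-0.995 to -0.58), -0.71 after scaling to the hepatocyte markers and -1.001, just past the threshold, with a pseudocount of 0.01. In CD+7KC relative to CD it was -0.66 (-0.83 to -0.50), and -0.62 after rescaling to equal sums and -0.49 after scaling to the hepatocyte markers. Set against the median of the 10 members, which does not depend on the scaling of the libraries, Cyp7a1 was at -0.69 under WD and -0.59 under CD.

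Cyp8b1, the sterol 12α-hydroxylase, was at 186 FPKM (CD), 47.3 (CD+7KC), 104 (WD) and 38.0 FPKM (WD+7KC). Both libraries with 7KC were below both libraries without it, by more than any counting interval. Under WD it was 2.74-fold lower with 7KC, a log2 ratio of -1.46 (-1.58 to -1.34). Under CD it was 3.93-fold lower with 7KC, a log2 ratio of -1.97 (-2.08 to -1.87). These falls lay below -1 under every scaling tried, and their smallest size was -1.17 under WD and -1.80 under CD, both with scaling to the hepatocyte markers. Relative to the median of the 10 members Cyp8b1 was at -1.16 under WD and -1.91 under CD.

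Of all genes tested whose mean reached 10 FPKM, 0.687% were below -1 in WD+7KC relative to WD, and Cyp8b1 was at rank 16 from the lowest of 4657. In CD+7KC relative to CD 0.451% were below -1, and Cyp8b1 was at rank 8 of 4660. Cyp7a1 was at rank 34 and rank 60. These comparisons have no library in common. Below -1 in both were 5 genes whose mean reached 10 FPKM, which were 15.6% of the 32 such genes under WD and 23.8% of the 21 under CD. They were Cyp8b1, the complement factor gene Cfd, the serpin gene Serpina1e and the small RNA genes Mir719 and Snora64, whose FPKM values are uncertain because such genes are shorter than a library fragment. These 5 are named because they are the whole overlap, and their names were chosen after the values were seen.

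**Figure D2:**
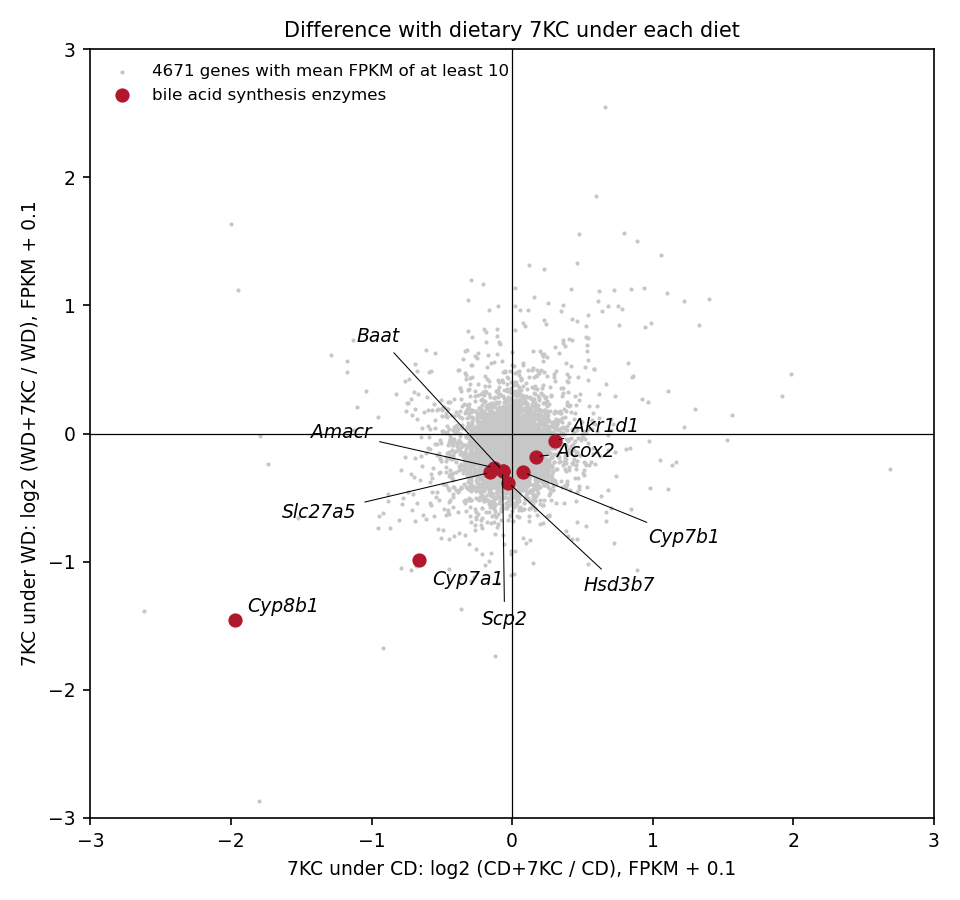
Log2 ratio with 7KC under CD (x axis) and under WD (y axis), from FPKM + 0.1, for the 10 enzymes (red) and the 4671 genes whose mean reached 10 FPKM (grey, with 36 of them outside the axes). Cyp8b1 lies at -1.97 and -1.46 and Cyp7a1 at -0.66 and -0.99, while the other 8 members lie within 0.39 of 0 on both axes.

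Within a library, the ratio of Cyp8b1 to Cyp7a1 does not depend on scaling. It was 10.2 (CD), 4.13 (CD+7KC), 7.98 (WD) and 5.82 (WD+7KC). Both genes were lower with 7KC, and Cyp8b1 was lower by more. The ratio of Cyp8b1 to Hsd3b7 was 0.671, 0.174, 0.501 and 0.238 in the same order, and that of Cyp7a1 to Cyp7b1 was 4.09, 2.44, 4.26 and 2.65. The classic 7α-hydroxylase thus stood lower against the alternative one in both libraries with 7KC, although Cyp7b1 rested on few reads.

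When 7KC was added to CD, Cyp8b1 was again the member that passed the threshold. Of the 10 members, 1 was below -1 and 0 were above 1, where 2.91% of 15684 genes tested were below -1 and 3.84% above 1. Cyp7a1 had the next largest difference, and the other 8 members lay between -0.15 (Slc27a5) and 0.31 (Akr1d1). The median of the members was -0.068, against -0.0012 for all genes tested. In all, 7 members were lower and 3 higher in CD+7KC than in CD. Of the 4660 genes whose mean reached 10 FPKM, 2501 were lower and 2159 higher. Among the members, 6 were lower after rescaling to equal sums and 2, Cyp7a1 and Cyp8b1, after scaling to the hepatocyte markers.

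Cyp7b1, the oxysterol 7α-hydroxylase of the alternative pathway, was at 4.44 FPKM (CD), 4.70 (CD+7KC), 3.07 (WD) and 2.47 FPKM (WD+7KC). The WD libraries were the lower ones, but the estimated reads were only 96, 102, 57 and 59. A difference with 7KC was not detectable at this depth, with a log2 ratio of -0.30 (-0.86 to 0.24) under WD and 0.081 (-0.33 to 0.50) under CD.

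The enzymes of the sterol ring differed from each other. Hsd3b7, which oxidizes and isomerizes the 7α-hydroxylated ring, was at 277 FPKM (CD), 272 (CD+7KC), 208 (WD) and 159.6 FPKM (WD+7KC). Its log2 ratio with 7KC was -0.38 under WD and -0.026 under CD, and these became -0.17 and 0.014 after rescaling to equal sums and -0.098 and 0.14 after scaling to the hepatocyte markers. Akr1d1, the 5β-reductase that gives bile acids their bent ring, was at 64.7 FPKM (CD), 80.1 (CD+7KC), 30.2 (WD) and 29.0 FPKM (WD+7KC). Both WD libraries were below both CD libraries, as they also were for Hsd3b7, Cyp7b1, Acox2, Scp2, Slc27a5 and Baat. The diet log2 ratio of Akr1d1 was -1.10 without 7KC and -1.46 with it. With 7KC its log2 ratio was -0.056 (-0.20 to 0.089) under WD, and 0.31 (0.22 to 0.40) under CD. After scaling to the hepatocyte markers these were 0.23 and 0.48, so that the sign under WD depended on the scaling.

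The peroxisomal enzymes of the side chain had the narrowest ranges. Amacr, the racemase that prepares the side chain for oxidation, was at 53.7 FPKM (CD), 49.1 (CD+7KC), 53.4 (WD) and 44.4 FPKM (WD+7KC). Its log2 ratio with 7KC was -0.27 (-0.38 to -0.15) under WD and -0.13 (-0.24 to -0.019) under CD, and after rescaling to equal sums both intervals included 0. Scaled to the hepatocyte markers it was at 0.020 and 0.041. Acox2, the oxidase for branched side chains, was at 120.2 FPKM (CD), 135 (CD+7KC), 106 (WD) and 93.8 FPKM (WD+7KC). Its log2 ratio was -0.18 under WD and 0.17 under CD, or 0.11 and 0.34 when scaled to the hepatocyte markers. Scp2 had -0.29 (-0.31 to -0.27) under WD and -0.068 (-0.084 to -0.052) under CD, narrow intervals that reflect at least 48246 estimated reads per library and leave out differences between mice. They became -0.073 and -0.028 with equal sums and -0.0033 and 0.10 with scaling to the hepatocyte markers, so that the scaling mattered more than the counting error.

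The conjugating enzymes differed from each other in level but had similar ratios between the libraries of WD. Slc27a5, the bile acid CoA ligase, was at 377 FPKM (CD), 338 (CD+7KC), 235 (WD) and 191 FPKM (WD+7KC). Baat, which joins the CoA ester to taurine or glycine, was at 150.4, 143, 114 and 92.9 FPKM in the same libraries. For either gene the order of the libraries was the same, from CD down to WD+7KC. With 7KC the log2 ratio of Slc27a5 was -0.30 (-0.36 to -0.25) under WD and -0.15 (-0.20 to -0.11) under CD. That of Baat was -0.29 (-0.38 to -0.20) and -0.068 (-0.14 to 0.0081). Under equal sums Slc27a5 was at -0.087 and -0.11, and Baat at -0.074 (-0.17 to 0.018) and -0.028. Scaled to the hepatocyte markers, Slc27a5 was at -0.017 and 0.017 and Baat at -0.0037 and 0.10.

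**Figure D3:**
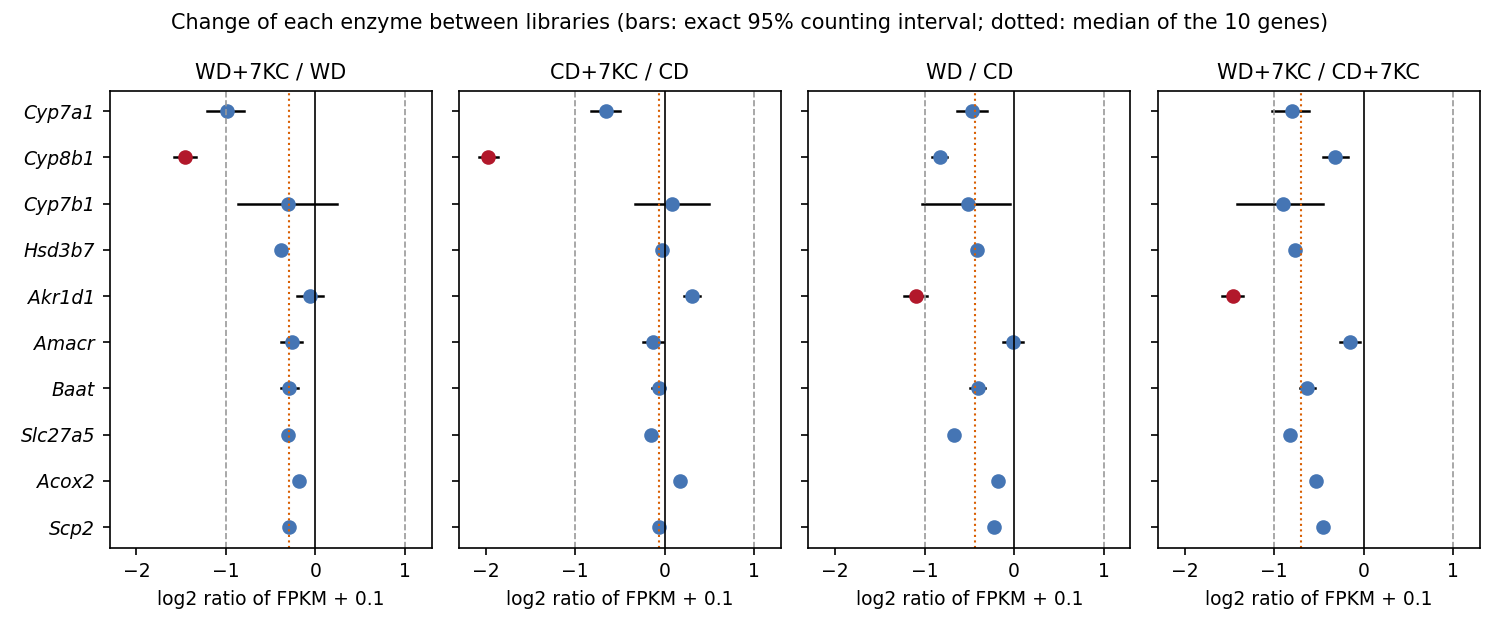
Log2 ratio of FPKM + 0.1 for each enzyme in the comparisons WD+7KC to WD, CD+7KC to CD, WD to CD and WD+7KC to CD+7KC. Bars are exact 95% counting intervals (not drawn for Hsd3b7 and Acox2, which have several mRNAs), red marks ratios below -1, dashed lines stand at -1 and 1 and dotted lines at the median of the 10 genes; Cyp8b1 is red in both comparisons for 7KC and Akr1d1 in both comparisons for diet.

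The log2 ratios for 7KC were subtracted, WD minus CD, to compare its difference under either diet. For Cyp8b1 the fall was smaller under WD, by 0.52 (95% counting interval 0.36 to 0.68), or 0.69 after rescaling to equal sums (0.53 to 0.85). For Cyp7a1 the value was -0.33 (-0.59 to -0.072), which became -0.16 (-0.42 to 0.10) after rescaling. For Akr1d1 it was -0.36 (-0.53 to -0.19), or -0.19 (-0.36 to -0.019). Counting error alone thus covered the difference for Cyp7a1 under one scaling but not for Cyp8b1 under either, and the variation between mice could not be estimated.

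The next question was how the enzymes differed between the diets. In WD relative to CD all 10 members were lower, and Akr1d1 passed the threshold: 1 of 10 was below -1 and 0 above 1, where 4.38% of 15597 genes tested were below -1 and 5.31% above 1. The median of the members was -0.44, against 0.0097 for all genes tested. Of the 4652 genes whose mean reached 10 FPKM, 2218 were lower and 2433 higher. After rescaling to equal sums, 9 members were lower and Amacr was at 0.023. The log2 ratio of Akr1d1 was -1.10 (-1.23 to -0.98), a level 2.14-fold lower in WD, and -1.02 after scaling to the hepatocyte markers. The ratios of the others ran from -0.83 (-0.92 to -0.75) for Cyp8b1 and -0.68 (-0.73 to -0.63) for Slc27a5 to -0.0099 (-0.12 to 0.10) for Amacr. Cyp7a1 was at -0.47 (-0.64 to -0.31), Cyp7b1 at -0.52 (-1.03 to -0.046), Hsd3b7 at -0.41 and Baat at -0.40 (-0.49 to -0.32).

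In WD+7KC relative to CD+7KC all 10 members were lower again, with a median of -0.70 against 0.0026 for all genes tested. Of the 4662 genes whose mean reached 10 FPKM, 2767 were lower and 1895 higher. Akr1d1 was the 1 member below -1 and 0 were above 1, where 4.61% of 15898 genes tested were below -1 and 8.01% above 1. It was 2.76-fold lower, a log2 ratio of -1.46 (-1.58 to -1.35), or -1.25 after rescaling to equal sums (-1.37 to -1.14) and -1.26 after scaling to the hepatocyte markers. Under equal sums the median of the members was -0.49, and 9 of 10 were lower. Cyp7b1 (-0.90, interval -1.41 to -0.45), Slc27a5 (-0.83), Cyp7a1 (-0.80) and Hsd3b7 (-0.77) followed Akr1d1. Cyp8b1 had the smallest diet difference after Amacr among these libraries, -0.31 (-0.45 to -0.18), which was -0.11 (-0.24 to 0.032) under equal sums, whereas its diet difference without 7KC was -0.83. Relative to the median of the members, Akr1d1 was at -0.66 without 7KC and -0.76 with it. With a 1.5-fold threshold, the members counted as lower were 2 with 7KC under WD, 2 with 7KC under CD, 3 in WD relative to CD and 6 in WD+7KC relative to CD+7KC, where 6.86%, 7.11%, 10.8% and 11.4% of all genes tested were as low. With a 4-fold threshold they were 0 in each, where the shares were 0.451%, 0.427%, 0.853% and 0.918%. The diet comparisons use other pairs of the same libraries as the 7KC comparisons, so they are not separate evidence.

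Other genes of the pathway were examined as a list of 12. With 7KC under WD, 9 were lower and 3 higher, with a median of -0.17. In CD+7KC relative to CD 3 were lower and 9 higher, with a median of 0.089. Among genes whose mean reached 10 FPKM, 3351 of 4657 were lower under WD and 2501 of 4660 under CD. The 1 gene of the list past the threshold with 7KC was Ch25h, the cholesterol 25-hydroxylase, above it under WD and below it under CD. Of all genes tested, 6.21% were above 1 under WD and 2.91% below -1 under CD. Ch25h had 1.82 FPKM (CD), 0.237 (CD+7KC) and 0.358 FPKM (WD+7KC) and was listed at 0 in WD. Most of these values are near 0 and the ratio under WD depends on the pseudocount, so neither direction is certain. Cyp27a1, which starts the alternative pathway by 27-hydroxylation, was at 173 FPKM (CD), 186 (CD+7KC), 153 (WD) and 108 FPKM (WD+7KC). It did not share the low level of Cyp8b1 in CD+7KC: the ratio of Cyp8b1 to Cyp27a1 was 1.08 (CD), 0.254 (CD+7KC), 0.681 (WD) and 0.352 (WD+7KC). Cyp2c70, which makes the muricholic acids of mice, was at 131, 149, 116 and 86.2 FPKM in the same order. Between the diets without 7KC, Cyp39a1 and Cyp46a1, enzymes of 24-hydroxycholesterol metabolism and synthesis, lay on opposite sides, with log2 ratios of 0.97 and -0.98.

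Of 18 regulators of bile acid synthesis, 0 were past the threshold with 7KC under either diet. Of all genes tested, 2.79% were below -1 and 6.21% above 1 under WD, and 2.91% and 3.84% under CD. Under WD, 13 regulators were lower and 5 higher with 7KC, with a median of -0.13. In CD+7KC relative to CD 8 regulators were lower and 10 higher, with a median of 0.086. Under WD, 3351 of the 4657 genes whose mean reached 10 FPKM were lower, with a median of -0.12. Of all 15753 genes tested there, 7845 were lower. The count of lower regulators under WD is thus not particular to them. Nr0b2, which encodes the repressor SHP, was at 24.9 FPKM (CD), 30.2 (CD+7KC), 15.1 (WD) and 18.5 FPKM (WD+7KC), a log2 ratio with 7KC of 0.28 under CD and 0.29 under WD. Nr1h4, which encodes FXR, was at 72.6, 52.4, 61.0 and 52.5 FPKM in the same order. For the factors whose letters were found before Cyp8b1 the mRNA level is given, and their activity was not measured. Hnf4a was at 121 FPKM (CD), 105 (CD+7KC), 105 (WD) and 93.4 FPKM (WD+7KC), and Nr5a2, which encodes LRH-1, was at 9.05, 10.3, 8.97 and 8.30 FPKM. Klb, the co-receptor for FGF signals from the gut, was at 9.84, 6.93, 6.68 and 5.45 FPKM, and Fgfr4, its receptor partner, was at 7.00, 7.74, 8.96 and 8.73 FPKM. In WD+7KC relative to CD+7KC 2 regulators were below -1 and 0 above 1, where 4.61% and 8.01% of all genes tested were. They were the nuclear receptor Nr1i3 (CAR), at -1.91, and Mafg, a repressor of Cyp8b1, at -1.12 on the log2 scale. With 7KC, Nr1i3 was at -0.61 under WD and 0.67 under CD.

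Among 13 bile acid and sterol transporters, Slc51a was listed at 0 in all 4 libraries, and 0 of the other 12 were past the threshold in WD+7KC relative to WD. Of these 12, 10 were lower and 2 higher there, with a median of -0.26. Among all genes tested in that comparison, 2.79% were below -1 and 6.21% above 1. Of the 4657 genes whose mean reached 10 FPKM, 3351 were lower there. Slc10a1 (NTCP), the main uptake carrier for conjugated bile acids, was at 238 FPKM (CD), 198 (CD+7KC), 187 (WD) and 111 FPKM (WD+7KC). Abcb11, the bile salt export pump, was at 94.7, 109, 65.9 and 65.1 FPKM, so that like Akr1d1 it was lower in both WD libraries. In CD+7KC relative to CD 5 were lower and 7 higher, and 1 was below -1 and 1 above 1, where 2.91% and 3.84% of all genes tested were, both of them genes of low FPKM. Slc51b, a subunit of the basolateral export carrier, rose from 0.647 to 3.55 FPKM, and Slco1a1, an uptake carrier, fell from 3.30 to 0.721 FPKM.

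**Figure D4:**
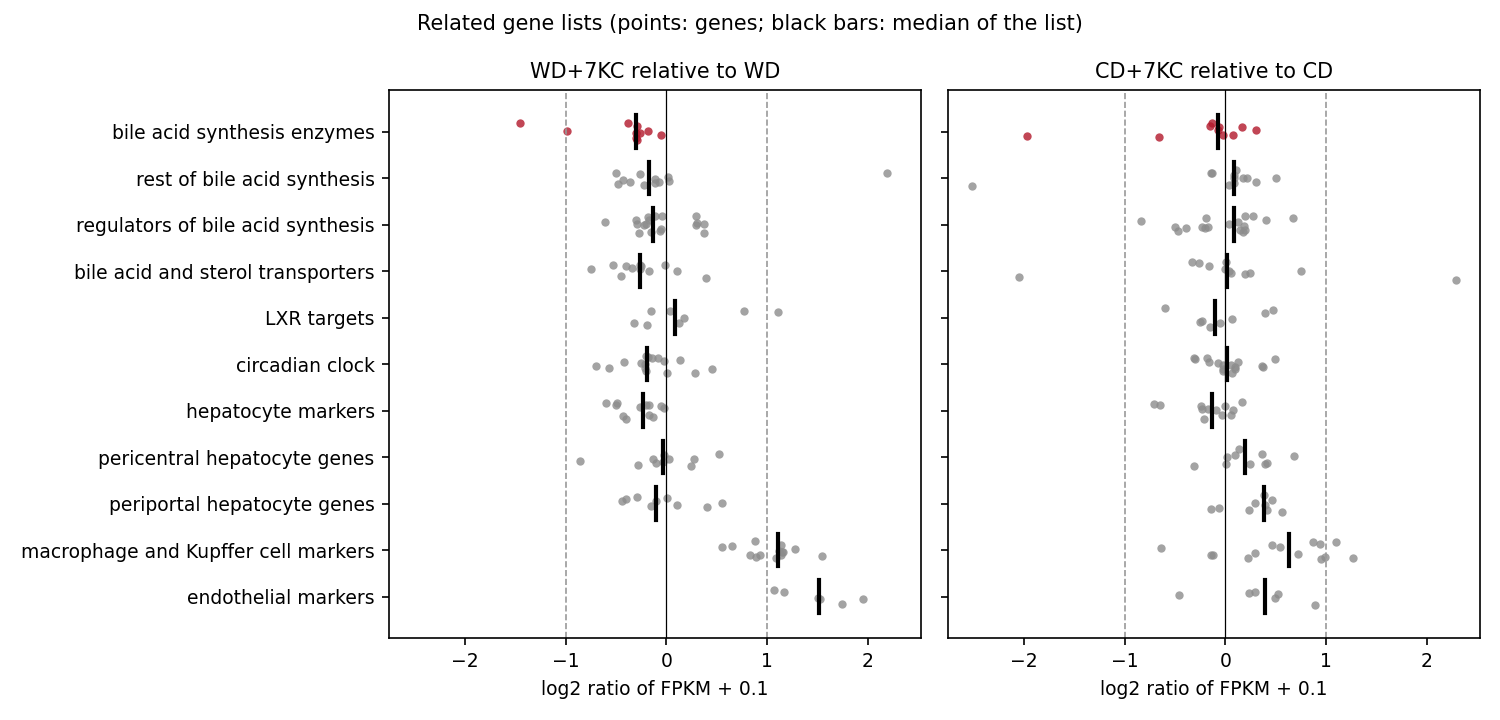
Log2 ratio of FPKM + 0.1 of each gene in the bile acid synthesis enzymes (red) and in related lists (grey) for 7KC under WD and 7KC under CD, with black bars for the median of a list and dashed lines at -1 and 1. The medians of the enzymes were -0.30 and -0.068, those of the hepatocyte markers -0.23 and -0.13, and those of the macrophage and Kupffer cell markers 1.11 and 0.63; Ch25h, listed at 0 in WD, is the point at the far right of its list in the first panel.

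Genes with the most similar pattern over the 4 libraries were sought among 10686 genes whose mean reached 1 FPKM, by the root mean square difference of centred log2 values. For Cyp8b1 the nearest was Chac1, a glutathione-degrading enzyme, at 0.36, followed by Agbl3, Slc17a8, Rpl30 and Mup21 at up to 0.48. For Cyp7a1 the nearest were 2010320M18Rik, Iqcb1, 2310010J17Rik, the pericentral cytochrome Cyp2e1 and Pim3, at 0.10 to 0.13. Cyp2e1 was at 3444 FPKM (CD), 2778 (CD+7KC), 2585 (WD) and 1424 FPKM (WD+7KC). For Cyp7b1 they were Cyp2r1, Cyp4f15, 2610005L07Rik, D130020L05Rik and Hsd11b1, at 0.015 to 0.028. This difference tends to grow with the range of a gene, which was widest for Cyp8b1, so its size cannot be compared between the members. Cyp7b1 rested on an estimated 57 to 102 reads per library, so its nearest genes are uncertain. With 4 libraries such likeness is a description of these libraries only.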

How the data were processed

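Liver RNA from 4 groups of ob/ob mice (1 library each) was sequenced by the authors as 75-base single-end reads from stranded mRNA libraries. Per the study's methods and the submitters' processing notes, reads were mapped to mm10 with TopHat2 2.0.13, Bowtie2 2.2.3 and SAMtools 0.1.19, and the deposited FPKM values came from Cufflinks 2.2.1; annotation and options are not given in the sources used here. The tables listed 24346 symbols once each.

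Log2 ratios of FPKM + 0.1 were computed for genes above 0 in at least 1 of the 2 libraries compared and counted past 1 or -1. Reads were estimated from the steps of low FPKM values, over genes with 1 RefSeq mRNA of at least 800 bases, using the GENCODE vM21 transcript length minus 200 bases; between 73.0% and 74.6% of low values lay within 0.1 of a whole read. Clopper-Pearson intervals of the read ratio (Poisson intervals for levels) cover counting error only and carry no pseudocount; intervals of the difference between diets used a normal approximation. None was given for Hsd3b7 and Acox2, which have 2 RefSeq mRNAs. Equal sums means TPM. The hepatocyte scaling used the geometric mean of 12 markers, of which the symbol Tf was matched as Trf. The estimate of library size was tested on simulated reads at known depths, and the motif search on a made sequence.

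The members, gene lists, threshold and pseudocount were chosen with earlier results of these data known. All members were named. Eligible for naming were also the genes of the pathway, regulator, transporter and LXR lists and the extremes of clock and marker lists. The 5 nearest patterns of Cyp7a1, Cyp8b1 and Cyp7b1 were named as well. From the eligible lists only some genes are named, and these were picked with their values known. Software was Python 3.11.15, numpy 2.4.6, pandas 2.3.3, scipy 1.17.1 and matplotlib 3.10.9.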

Additional observations from a re-analysis of the deposited data

Results flagged for a closer look

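With 7KC, 3 members lay on opposite sides of 0 under the diets, and the difference was not tested because each group had 1 library. Cyp7b1 had log2 ratios of -0.30 under WD and 0.081 under CD, a difference of -0.38, and both counting intervals included 0. Akr1d1 had -0.056 under WD and 0.31 under CD, a difference of -0.36, and after rescaling to equal sums it was higher with 7KC under both, with 0.16 and 0.35. Acox2 had -0.18 under WD and 0.17 under CD, a difference of -0.35, and after rescaling to equal sums it was also higher under both, with 0.037 and 0.21.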

How the results depend on the processing

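Cyp8b1 with 7KC under either diet, and Akr1d1 in either diet comparison, stayed below -1 under every pseudocount and scaling tried. The filters only choose genes, so they cannot change the ratio of a single gene. The median of the members depended on the scaling. In WD+7KC relative to WD it was -0.30 as deposited, -0.080 with equal sums, -0.12 with equal sums without the 20 highest genes and -0.010 with the hepatocyte scaling. In WD+7KC relative to CD+7KC it was -0.70, and -0.49, -0.50 and -0.50 under these. In CD+7KC relative to CD it was -0.068, and 0.10 with the hepatocyte scaling. With a pseudocount of 0.01, 2 members rather than 1 were below -1 in WD+7KC relative to WD, since Cyp7a1 passed, while the share of all genes tested below -1 was 5.86% rather than 2.79%. With a 1.5-fold threshold, the members below it numbered 2 in WD+7KC relative to WD, 2 in CD+7KC relative to CD, 3 in WD relative to CD and 6 in WD+7KC relative to CD+7KC, and with a 4-fold threshold they numbered 0 in each. For the 8 members with a counting interval, 230 of 284 values under these alternatives stayed within it and 54 moved beyond it. The 230 include the values under the filters, which equal the main values by construction. Apart from Scp2 under upper-quartile scaling, those that moved did so with equal sums, with or without the 20 highest genes, or the hepatocyte scaling. No value of a member past the threshold changed sign. Using the full transcript length, the counting intervals changed in width by less than 1.5 times, but fewer low values (45.6% to 47.9%) were near whole reads. With 1 library per group no library could be left out, and no paired analysis was possible because each group had 1 library. Upper-quartile and median-ratio scaling changed no count and no direction of the members. For median-ratio scaling this was set in advance, because its divisors lay between 0.999 and 1.001. The deposited values were thus already level by that measure.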

Other observations

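The 16 circadian clock genes, among whose outputs Cyp7a1 is counted, had median log2 ratios with 7KC of -0.19 under WD (12 lower, 4 higher) and 0.021 under CD (8 lower, 8 higher). None was past the threshold in any comparison, where 2.79% to 4.61% of all genes tested were below -1 and 3.84% to 8.01% above 1. With 7KC under WD, 7845 of all 15753 genes tested were lower, and 3351 of the 4657 whose mean reached 10 FPKM. The extremes of the clock genes under WD were Ciart at -0.69 and Per2 at 0.45, and under CD Nr1d1 at -0.31 and Per2 at 0.49. The 8 LXR targets had medians of 0.083 under WD (5 higher, 3 lower) and -0.10 under CD (3 higher, 5 lower). Abcg1 was the 1 of them above 1 with 7KC under WD, where 6.21% of all genes tested were. Abcg1, a sterol exporter of macrophages and other cells, rose from 2.07 to 4.58 FPKM in WD+7KC relative to WD. Macrophage markers also rose in this comparison, with 8 of 14 above 1, against 6.21% of all genes tested. Their part in the rise of Abcg1 was not tested. Cyp7a1, an LXR target in mice, was lower in the same comparison.

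Cyp7a1 and Cyp8b1 are expressed mainly near the central vein. The 10 pericentral genes had a median of -0.028 in WD+7KC relative to WD (6 lower, 4 higher) and 0.19 in CD+7KC relative to CD (1 lower, 9 higher). The 9 periportal genes had -0.10 (5 lower, 4 higher) and 0.38 (2 lower, 7 higher). The 1 pericentral gene lower under CD was Cyp2e1, at -0.31. Other marker lists had medians, under WD and CD, of -0.37 and 0.96 for 8 lymphocyte markers, 1.52 and 0.39 for 6 endothelial markers, 0.17 and -0.70 for 8 stellate cell markers and 0.29 and -0.44 for the cholangiocyte markers above 0 in each comparison. Of the 3 adipocyte markers, Plin1 was at 0 in every library and Adipoq was at 0.088 FPKM or less. Fabp4, which macrophages also express, was at 83.5 FPKM (CD), 66.5 (CD+7KC), 104 (WD) and 143 FPKM (WD+7KC), a log2 ratio with 7KC of 0.45 under WD and -0.33 under CD.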
